A study of Rattus norvegicus with 6 samples.

Results

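Circular RNAs (circRNAs) made from 5 genes of transcription factors, Nfix, Tead1, Bcl11b, Tcf4 and Camta1, were examined in cultured dental follicle cells of the rat. A circRNA belonged to this set when one of the 5 symbols stood among the comma-separated gene names given for it, which held for 15 of the 4143 circRNAs listed. They were 3 of Nfix, 4 of Tead1, 3 of Bcl11b, 2 of Tcf4 and 3 of Camta1. The genes were chosen by the abundance of their circRNAs and with the counts of both columns already known, so the levels and differences below are descriptions and carry no test. Induction cells were grown for 28 days with 5% serum plus 1% of an osteogenic liquid, which held dexamethasone at 0.010 mmol/L, ascorbic acid at 0.028 mmol/L and β-glycerophosphate at 1.000 mol/L. Control cells were grown for the same 28 days with 5% serum and without that liquid. Both groups were Sprague-Dawley cells from tooth germs of animals 5 to 7 days old, used at passage 3 to 4, and the labels describe 3 samples per group. The file held 1 count column per group, so no spread between rats could be measured, and the number of rats is given as 3 in one place of the labels and as 4 in another.

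A circRNA forms when the splicing machinery joins the end of an exon back to the start of the same exon or of an exon upstream of it, which closes the RNA into a ring. Reads that cross this back-splice junction show it, and 1 gene can give several rings that use the same splice site on one side and different ones on the other. The host genes here encode proteins that bind DNA. Nfix is a member of the nuclear factor I family, known for its part in muscle and brain development. Tead1 carries the coactivators YAP and TAZ of the Hippo pathway to DNA. Bcl11b is a zinc finger factor required in mice for T cell development and for the enamel-forming epithelium of the tooth. Tcf4 is a basic helix-loop-helix E protein that pairs with other factors of its class, and Camta1 is a calmodulin-binding transcription activator best known from the nervous system. How a circRNA relates to the amount of its host's mRNA or protein was not measured.

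Levels are given as counts and as the TPM values of the deposited file, which here are junction counts per 1000000 of a column total, with no length term. Each count belongs to 1 junction, so circRNAs of different genes are compared per junction. The listed counts came to 164746 in induction and 137740 in control, with a median of 9 per circRNA in each column. The cultured cells' label was checked on circRNAs of marker genes: 7 of 12 mesenchymal markers had a listed circRNA (52358 counts in induction and 40520 in control), against 0 of 8 epithelial, 1 of 7 leukocyte (19 and 29 counts), 1 of 5 endothelial (50 and 48) and 1 of 7 muscle or nerve markers (15 and 10). Most of the mesenchymal counts came from the collagen genes Col1a1, Col1a2, Col3a1 and Col6a1, so the check rests mainly on collagen circRNAs. Of the other mesenchymal markers, Prrx1 had the most abundant circRNA, with 39 counts in induction and 37 in control. Marker levels were thus seen only through circRNAs, and their part in the results was not tested.

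The 5 genes differed widely in abundance. Ordered by mean TPM of both columns, the most abundant circRNA of Nfix ranked 2 of 4143, that of Tead1 132, that of Camta1 146, that of Bcl11b 660 and that of Tcf4 2261. The rank of the Nfix circRNA was 4 in the induction column and 2 in the control column. The Tead1 circRNA ranked 199 in induction and 84 in control, the Camta1 circRNA 279 and 88, the Bcl11b circRNA 1001 and 458, and the Tcf4 circRNA 1452 and 3706. The first 4 of these circRNAs therefore stood lower in the order of induction than in that of control, and the Tcf4 circRNA stood higher. Summed over all circRNAs of a gene and set among 1965 host genes, the order was Nfix at 4, Tead1 at 49, Camta1 at 77, Bcl11b at 317 and Tcf4 at 917. The least abundant of the 15 was a Nfix circRNA at rank 3592, so Nfix gave both extremes of the set.

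**Figure D1:**
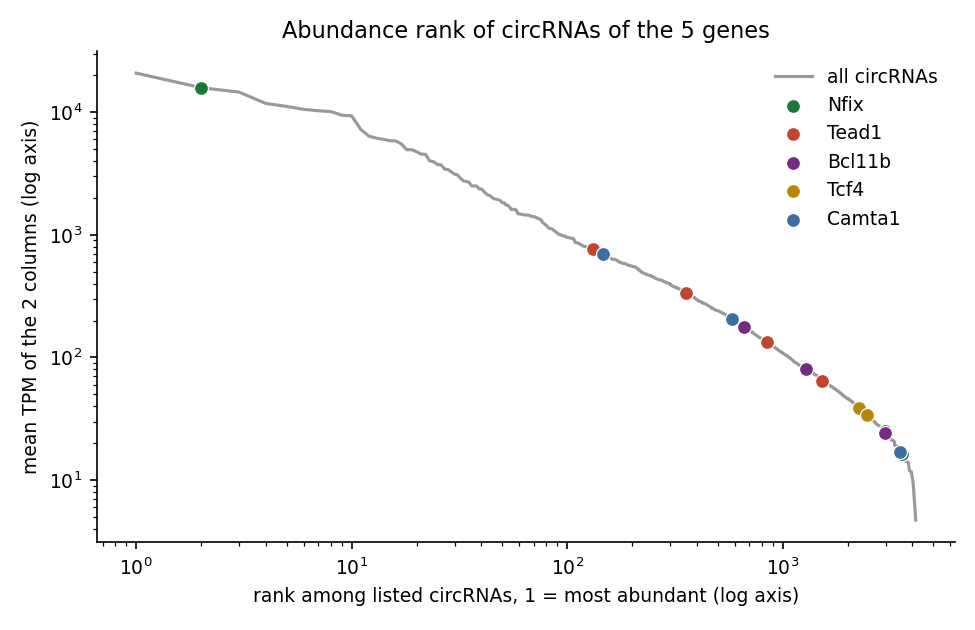
Mean TPM of both columns (log axis) against abundance rank (log axis) for all 4143 circRNAs (grey line) and the 15 circRNAs of the 5 genes (coloured points). The 532 nt Nfix circRNA lies at rank 2, and the other 14 lie between ranks 132 and 3592.

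A circRNA was called when its ratio of induction to control was at least 2-fold either way and its exact 95% counting interval excluded equal levels. Of the 15 circRNAs, 4 were called higher in induction, 3 were called lower and 8 were neither. Over all 4143 circRNAs, 9.22% were called higher and 9.29% lower, 18.5% in all; because the genes were chosen with these counts in view, nothing is read from that comparison. Scaled to the listed totals in place of the totals behind the TPM values, which shifts every log2 ratio by −0.13, the calls were 4 higher and 5 lower, where 7.89% of all circRNAs were called higher and 11.2% lower. When each pooled column was assumed to carry a variation of 40% beyond counting error, 4 of the 15 were called, where 7.22% of all circRNAs were. At a 4-fold threshold 3 of the 15 were called, where 8.93% of all were. Of the 9 with at least 20 counts in both columns together, 5 were called, where 30.2% of all such circRNAs were. The median log2 ratio was 0.12 over the 15 circRNAs and −0.05 over all 4143. The intervals cover counting error only and hold neither variation between animals nor duplicate reads. All 4 circRNAs called higher came from Tead1, Bcl11b and Tcf4, and the 3 called lower came from Bcl11b, Tcf4 and Camta1.

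**Figure D2:**
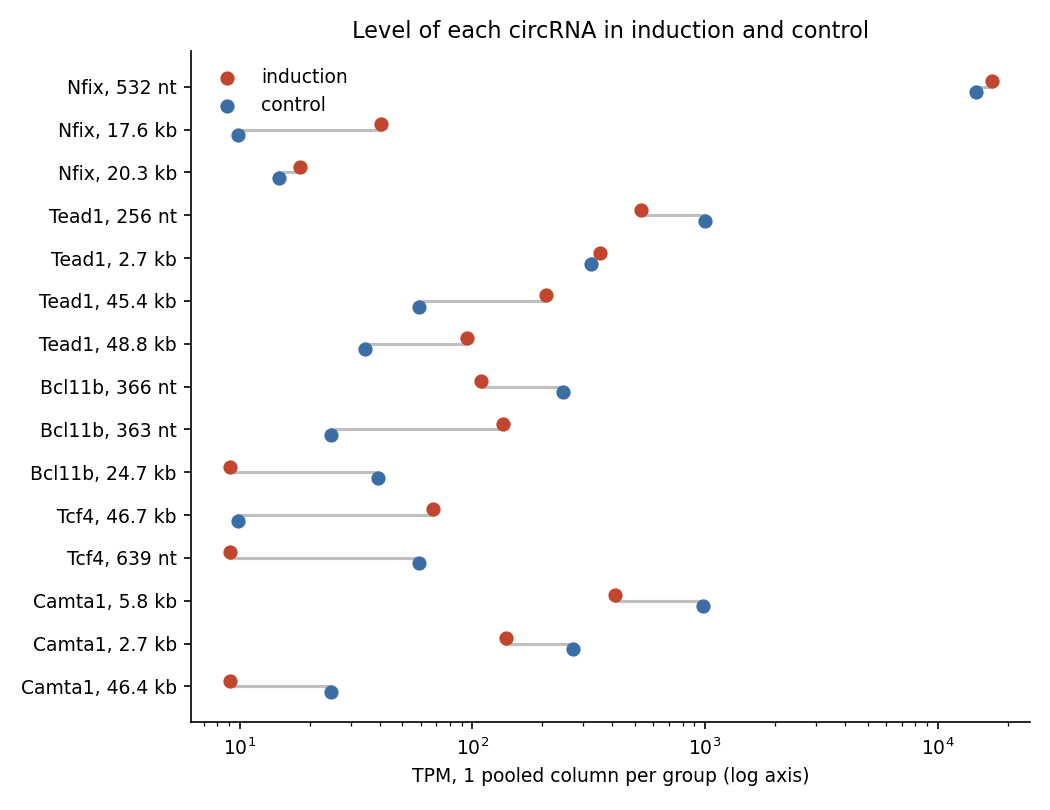
TPM (log axis) of each of the 15 circRNAs in induction (red) and control (blue), 1 pooled value per group, with the gene and the genomic span at the left. The 532 nt Nfix circRNA stands at 17067 TPM in induction and 14645 TPM in control, far to the right of the others, and the long Tead1 and Tcf4 circRNAs have their induction point on the right.

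**Figure D3:**
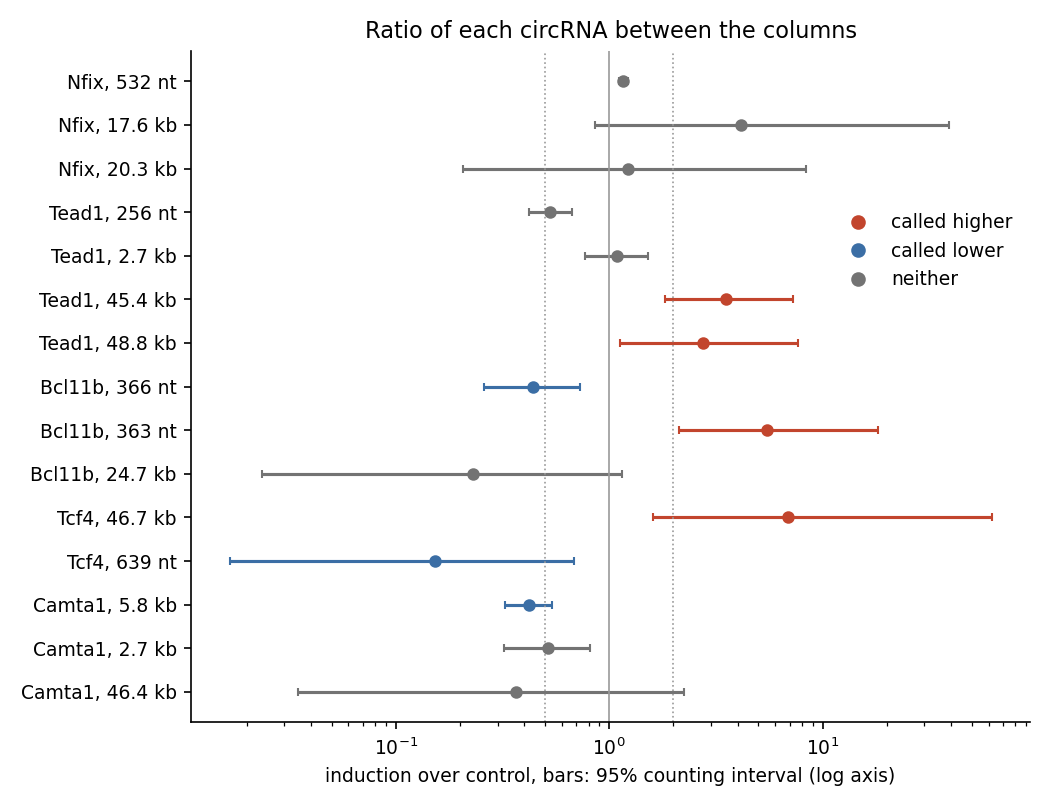
Ratio of induction to control (log axis) of each circRNA with its exact 95% counting interval. Red points were called higher, blue points lower and grey points neither, the solid line marks equal levels and the dotted lines 2-fold; the intervals widen toward the circRNAs of few counts, such as the Tcf4 circRNA of 46652 nt (1.60 to 62.0).

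Nfix gave almost all of its junction counts to a single ring. This circRNA lies on chromosome 19 from 25886356 to 25886887 (Rnor_6.0), a span of 532 nt. It had 3782 counts in induction and 2977 in control. That was 2.30% of listed counts in induction (exact 95% interval 2.22 to 2.37) and 2.16% in control (2.09 to 2.24). Its ratio of 1.17 (1.11 to 1.22) lay above equal levels and well short of 2-fold, and its log2 ratio of 0.22 became 0.09 when scaled to listed totals. The other Nfix circRNAs each reuse 1 end of the abundant one. The circRNA from 25886356 to 25903940 keeps its start, spans 17585 nt and had 9 counts in induction against 2 in control. The circRNA from 25866615 to 25886887 keeps its end, spans 20273 nt and had 4 counts in induction and 3 in control. Neither was called, with intervals of the ratio from 0.854 to 39.3 and from 0.207 to 8.35. The abundant circRNA held 99.7% of Nfix counts in induction and 99.8% in control, whereas the leading circRNA of the 730 host genes with more than 1 circRNA held 63.2% of its gene's counts at the median.

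Nfib, the only other nuclear factor I gene with a listed circRNA, had a ring of the same span at far lower counts. Its circRNA on chromosome 5 from 100640453 to 100640984 also spans 532 nt, and these were the only 2 of the 4143 circRNAs with that span, an observation made after the values were seen. It had 4 counts in induction and 3 in control, against 3782 and 2977 for the Nfix ring, and was the least abundant of the 4 Nfib circRNAs, whereas the Nfix ring led its gene. No other Nfib circRNA shares its start. Another Nfib circRNA, from 100493404 to 100640984, ends where the 532 nt ring ends and was the gene's most abundant, with 17 counts in induction and 8 in control. Both Nfib circRNAs called higher were chosen for naming after their values were seen. That from 100493404 to 100523952 had 16 and 3 counts in induction and control. That from 100523899 to 100640984, which also ends where the 532 nt ring ends, had 14 and 3. In sum the 4 Nfib circRNAs had 51 counts in induction and 17 in control.

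Tead1 hosted 4 circRNAs on chromosome 1, and 3 of them close on the same end at 177569872. The shortest, from 177569617, spans 256 nt and was the most abundant of the gene, with 118 counts in induction and 204 in control. It was 1.88-fold lower in induction, a ratio of 0.531 (0.419 to 0.669) that is short of 2-fold, and with listed totals it crossed that limit (log2 ratio −1.05 in place of −0.91). The long circRNAs of the same end went the other way. That from 177524504, of 45369 nt, had 46 counts in induction and 12 in control, a ratio of 3.52 (1.83 to 7.29), and was called higher. That from 177521072, of 48801 nt, had 21 counts in induction and 7 in control, a ratio of 2.75 (1.13 to 7.66), and was called higher too. The intervals of both long circRNAs lay wholly above that of the short one. The gene-name field of each long circRNA held 20 names, while that of the short one held Tead1 alone. Keeping only rows of a single name therefore leaves out both long ones.

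Within these 3 Tead1 circRNAs, the 256 nt ring held 63.8% of counts in induction (56.4 to 70.7) and 91.5% in control (87.0 to 94.8). The summed counts of the 3 were 185 in induction and 223 in control, a ratio of 0.761 (0.623 to 0.929). The remaining Tead1 circRNA, from 177651557 to 177654228, shares no end with the others and had 78 counts in induction and 66 in control. Its ratio of 1.08 (0.771 to 1.53) did not differ from equal levels beyond counting error, and its log2 ratio of 0.12 turned to −0.02 with listed totals. The gene's sum, 263 counts in induction and 289 in control, had a ratio of 0.835 (0.704 to 0.990) and was not called.

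**Figure D4:**
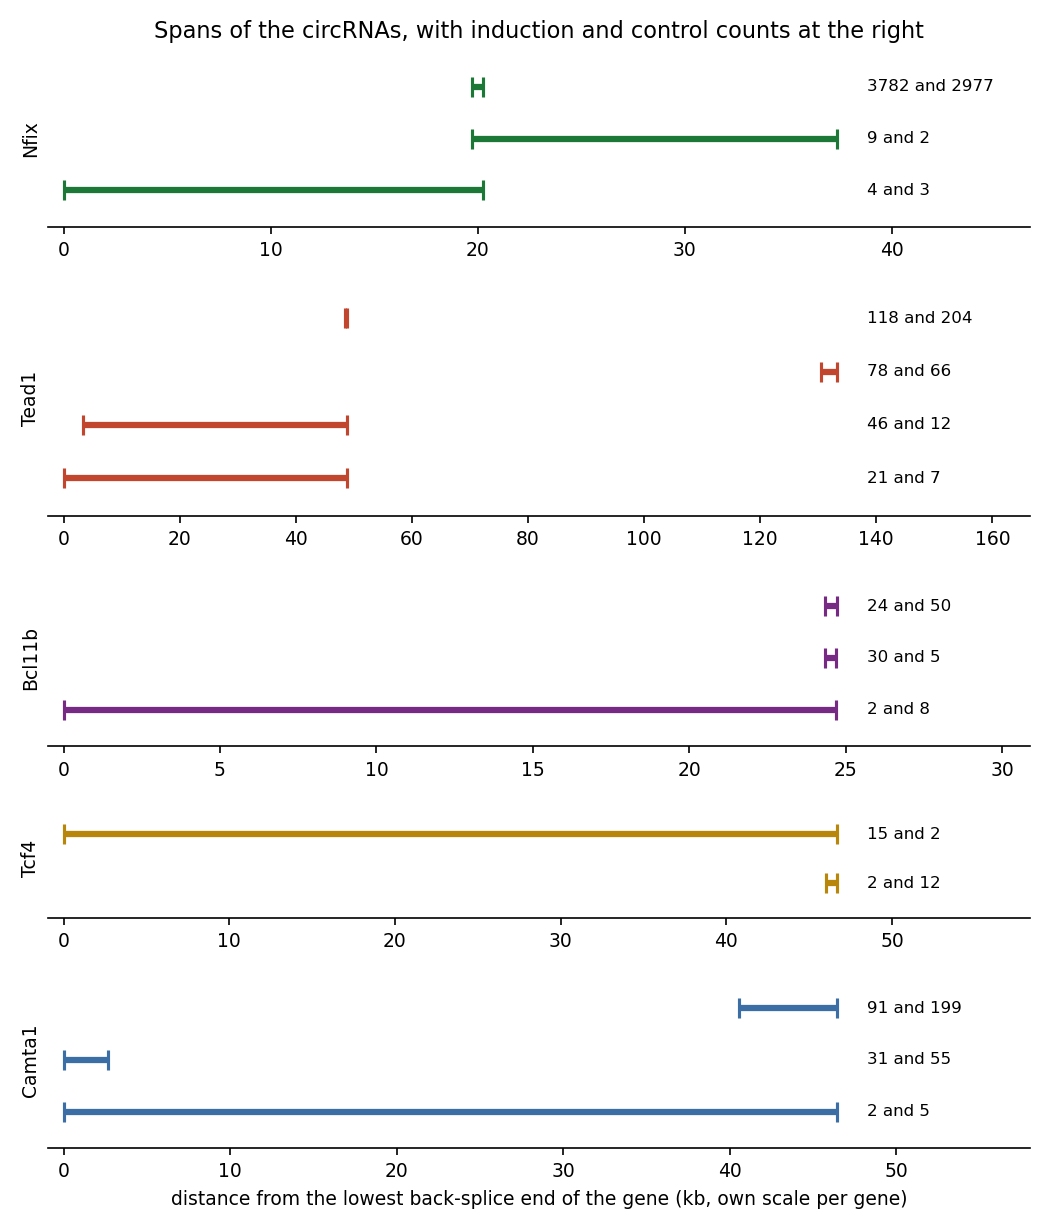
Genomic span of each circRNA in kb from the lowest back-splice end of its gene, with its induction and control counts at the right; each gene has its own scale. Short rings share an end with long ones in Nfix, Tead1, Bcl11b and Tcf4, and in Camta1 the 46424 nt circRNA joins the outer ends of the shorter ones.

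Bcl11b showed a pair of circRNAs that differ by 3 nt at one end and ran in opposite directions. Both start at 131912740 on chromosome 6. The one ending at 131913105, of 366 nt, had 24 counts in induction and 50 in control and was 2.27-fold lower (1.37 to 3.86). The one ending at 131913102, of 363 nt, had 30 counts in induction and 5 in control and was 5.50-fold higher (2.11 to 18.2). Together they had 54 counts in induction and 55 in control, a ratio of 0.901 (0.607 to 1.34), so the pair taken as 1 circRNA was not called. The 366 nt form made up 44.4% of the pair in induction (30.9 to 58.6) and 90.9% in control (80.0 to 97.0). The end at 131913102 was also used by a longer Bcl11b circRNA from 131888399, of 24704 nt, which had 2 counts in induction and 8 in control and was not called. The 2 circRNAs that close at 131913102 thus had opposite signs, with the longer one resting on 10 counts. Whether the alignment moved reads between the close ends was not tested.

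Tcf4 had the fewest counts, and both of its circRNAs end at 65389384 on chromosome 18. The circRNA from 65342733, of 46652 nt, had 15 counts in induction and 2 in control, a ratio of 6.88 (1.60 to 62.0). The circRNA from 65388746, of 639 nt, had 2 counts in induction and 12 in control and was 6.54-fold lower (1.46 to 60.2). The long form made up 88.2% of Tcf4 counts in induction (63.6 to 98.5) and 14.3% in control (1.78 to 42.8). Their sum was 17 counts in induction and 14 in control, a ratio of 1.11 (0.517 to 2.44). Each of these calls rests on 2 counts in one of the columns.

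Camta1 was the only one of the 5 genes whose summed counts were called, with 124 counts in induction and 259 in control. The sum was 2.28-fold lower in induction (1.83 to 2.84), where 9.41% of host gene sums were called lower and 17.2% in either direction. Neither the sum nor the leading circRNA kept its call with the assumed variation of 40% or at a 4-fold threshold. The leading circRNA spans 168985430 to 168991261 on chromosome 5 and had 91 counts in induction and 199 in control and was 2.38-fold lower (1.85 to 3.09). The circRNA from 168944838 to 168947498 had 31 counts in induction and 55 in control, 1.93-fold lower (1.22 to 3.11). On the listed totals it crossed the 2-fold limit (log2 ratio −1.09 in place of −0.95). The third circRNA begins where this one begins and ends where the most abundant one ends, from 168944838 to 168991261, and had 2 counts in induction and 5 in control. All 3 log2 ratios of Camta1 were below 0. The leading circRNA held 73.4% of the gene's counts in induction (64.7 to 80.9) and 76.8% in control (71.2 to 81.8), and these intervals overlap.

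**Figure D5:**
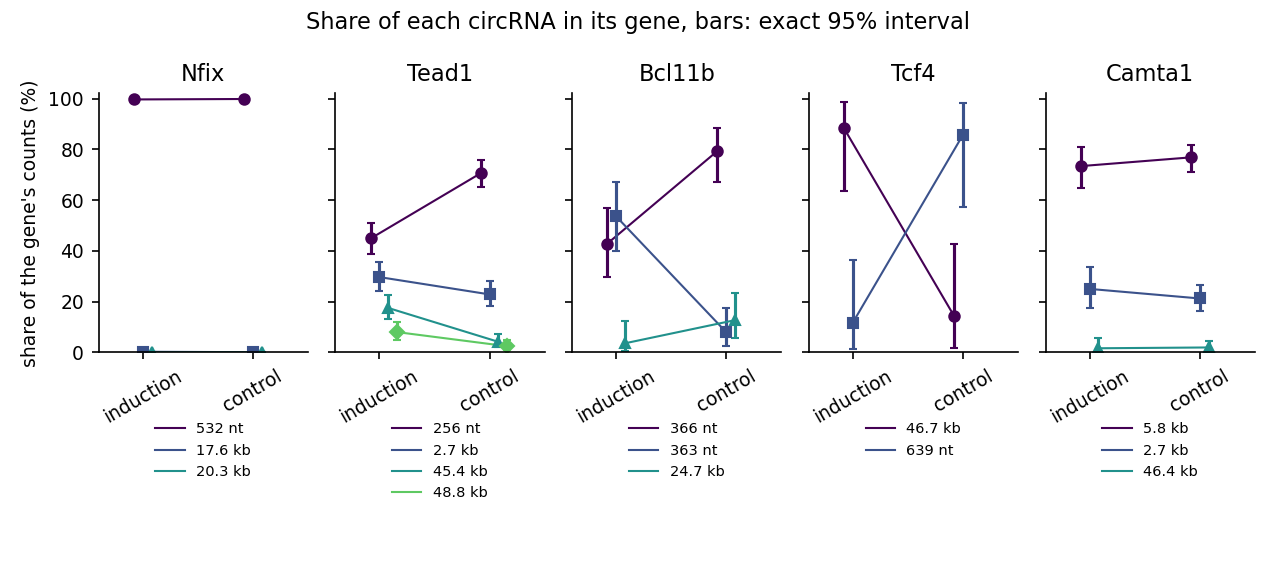
Share of each circRNA in its gene's counts (%), in induction and control, with exact 95% intervals; lines join the same circRNA, named by its span. The intervals of each Nfix and each Camta1 circRNA overlap between induction and control. The form with the larger share in Bcl11b and in Tcf4 is not the same in induction and control. In induction, however, the intervals of the 363 nt (39.7 to 67.0) and 366 nt (29.7 to 56.8) forms of Bcl11b overlap.

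Shared ends were frequent in the set. Of the 15 circRNAs, 14 had a start or an end in common with another circRNA of their gene, the exception being the Tead1 circRNA of 2672 nt. In the whole table, 1839 circRNAs (44.4%) shared a start or an end with another. Both ends were shared in 3 of the 15, namely the 532 nt ring of Nfix, the 363 nt ring of Bcl11b and the 46424 nt circRNA of Camta1, and in 9.75% of all circRNAs. Of the 1965 host genes, 1235 had a single listed circRNA, which has no other of its gene to share an end with. Every gene of the set had more than a single circRNA. The shares over the whole table are thus no like measure for the set, and nothing is read from setting them side by side. The gene-name field of 8 circRNAs held the member's name alone, and that of the other 7 also listed names of small RNA families or other genes. Exons were not assigned, so the exons inside each span and the true length of each ring are not known.

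Spans ranged from 256 to 48801 nt, with a median of 5832 nt, close to the 5664 nt of the whole table. The 7 circRNAs of 10 kb or more, a limit set after the values were seen, had at most 58 counts each in both columns together. Of these 7, 3 were called higher and 0 lower, where 8.29% of all circRNAs of that length were called higher and 8.1% lower. The 7 summed to 99 counts in induction and 39 in control, a ratio of 2.33 (1.59 to 3.47). Without those of Tead1 the ratio was 1.47 (0.814 to 2.71), on 32 counts in induction and 20 in control. Of the 8 shorter circRNAs, 1 was called higher and 3 lower, where 9.75% and 9.98% of all shorter circRNAs were. The 8 summed to 4156 counts in induction and 3568 in control, a ratio of 1.07 (1.02 to 1.12). Without the abundant Nfix ring, the shorter ones summed to 374 counts in induction and 591 in control, a ratio of 0.581 (0.509 to 0.662). The largest of these were the 256 nt Tead1 ring (118 and 204 counts) and the leading Camta1 circRNA (91 and 199). The shorter circRNAs of Tead1 at 2672 nt (78 and 66) and Bcl11b at 363 nt (30 and 5) went the other way. Among the long ones, those of Bcl11b (2 and 8) and Camta1 (2 and 5) were lower. Whether span bears on the ratio was not tested. Over the whole table, sums of circRNAs of 10 kb or more and of the shorter ones had ratios of 1.07 and 1.11.

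The 532 nt Nfix ring held 86.0% of the counts of the whole set. All 15 circRNAs had 4255 counts in induction and 3607 in control, a ratio of 1.08 (1.03 to 1.13). Without the Nfix ring the other 14 had 473 counts in induction and 630 in control, a ratio of 0.689 (0.610 to 0.777). The 256 nt Tead1 ring (118 in induction and 204 in control) and the leading Camta1 circRNA (91 and 199) were the largest. Of the 14, 4 were called higher and 3 lower, so the sum does not describe each circRNA. In the authors' deposited table, 9 of the 15 had an FDR under 0.05, 4 higher and 5 lower in induction, where 16.9% of all circRNAs did. Because the genes were chosen with these counts in view, nothing is read from that comparison either. The authors' deposited table gave the Nfix ring an FDR of 1.12e-08 at a log2 ratio of 0.22, and gave the longest Tead1 circRNA, which was called here, an FDR of 0.0793. Those values come from the same pair of counts per circRNA and compare columns of reads, not rats.

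Among genes related to the 5 by family or pathway, 80 further circRNAs from 38 genes were listed. Of these, 7 were higher, 4 lower and 69 neither, at a median log2 ratio of 0.18. That is 13.75% called, where 18.5% of all 4143 circRNAs were (9.22% higher and 9.29% lower). The lists that follow are therefore descriptions only. Of 35 other genes of the TEAD and Hippo pathway, 12 had circRNAs, and of their 23 circRNAs 0 were higher, 2 lower and 21 neither, with a median of −0.26. The leading one came from Stk3, a kinase upstream of YAP, with 278 counts in induction and 151 in control, a ratio of 1.69 (1.38 to 2.07). The lower ones were of Fat1, an atypical cadherin, with 6 counts in induction and 40 in control, and of Nf2, which encodes merlin, with 2 and 9. Of 14 other BCL11 family and NuRD genes, 4 had circRNAs, and 0 of these 9 were higher and 2 lower (median 0.22). Mta1, a subunit of the NuRD repressor complex, had one of them at 8 counts in induction and 43 in control, 5.86-fold lower (2.72 to 14.4), while its most abundant circRNA had 58 and 29. The other lower one was of the deacetylase Hdac2, with 2 counts in induction and 10 in control.

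None of the 11 other E proteins, ID proteins and their partners had a listed circRNA. Of 21 other genes of calmodulin signalling, 4 had circRNAs, and 2 of these 7 were higher and 0 lower (median 0.88). Ppp3cc, a catalytic subunit of calcineurin, had one at 46 counts in induction and 19 in control, a ratio of 2.22 (1.28 to 4.01). The abundant circRNA of the calmodulin-dependent kinase Camk2d had 220 and 182 counts, and another Camk2d circRNA, the second of the higher ones, had 20 and 4. A further list held 68 transcription factors chosen as mesenchymal, a grouping that was not tested here. Of these, 17 had circRNAs, and 3 of these 37 circRNAs were higher and 0 lower (median 0.03). The leading one came from Runx2, the osteoblast transcription factor, with 1328 counts in induction and 627 in control, a ratio of 1.94 (1.77 to 2.14), and a longer Runx2 circRNA, with 31 and 5 counts, was among the higher ones. Pbx3, a homeodomain partner of HOX proteins, gave the other two, which share the start at 13270114 on chromosome 3. They had 31 and 26 counts in induction, against 10 and 10 in control.

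The circRNAs of other hosts nearest in level, among those listed with 1 gene name, were found by distance on the log2 TPM scale over both columns. For the Nfix ring the nearest were a Col3a1 circRNA at a distance of 0.63 (4319 counts in induction and 1967 in control) and one at the 7SL RNA locus at 0.72 (2505 and 2233), whose reads can be shared between near-identical copies. Without the limit to 1 gene name, a Col3a1 circRNA with 5096 counts in induction and 3798 in control, the most abundant of the table, was nearest to the Nfix ring at 0.56, and a circRNA on chromosome 1 from 11971451 to 11971756 with no single host was nearest to the leading Camta1 circRNA at 0.05. For the 256 nt Tead1 ring the nearest was a Cep112 circRNA at 0.13, with 129 counts in induction and 208 in control. The nearest to the Bcl11b circRNA of 366 nt were those of Nop58 at 0.06 and Ralgps2 at 0.09, and the nearest to the leading Camta1 circRNA were those of Rmnd5a at 0.31 and Gtf2i at 0.38. The 46652 nt Tcf4 circRNA had the same counts, 15 in induction and 2 in control, as circRNAs of Mtf2 and Slc39a6. With 2 columns this likeness is one of level and ratio only.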

How the data were processed

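Total RNA was freed of DNA and linear RNA before Illumina sequencing, per the labels' protocols. Reads went through FastQC and BWA on Rnor_6.0, per the submitters' processing notes. For the circRNA caller, for its filters and for the pooling of 3 samples into 1 column, nothing is stated in the sources used here. Deposited counts, as read from their values, are whole numbers, at least 1 in both columns. A circRNA seen in only one group was thus not analysed here. The deposited TPM equals the count over a total (221596 for induction, 203283 for control) times 1000000. The file headers do not state that total, which was worked back from the counts and TPM of circRNAs of high count. The counts listed made up 74.3% of it in induction and 67.8% in control. The deposited log2 ratios, p-values and FDR are the authors', per the file headers.

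Ratios on these totals, with Clopper-Pearson intervals on the split of counts, were computed with SciPy 1.17.1 (Python 3.11.15) for all 4143 circRNAs, and the rule was tested on simulated data. edgeR 4.0.16 (TMM) and DESeq2 1.42.0 gave alternative scalings only. For ranks of gene sums, 60 names found on several chromosomes or over more than 5 Mb were dropped, which left 1965 hosts. All 5 symbols matched RefSeq genes of GRCr8, used for names only.

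Members and lists were chosen with earlier results of these data known. Values are given for a circRNA that leads its gene, has at least 20 counts, is called, or shares an end or has one within 10 nt, which covered all 15. From related lists, the leading host's top circRNA and called ones of at least 30 counts are named, at most 4 per list; called ones of fewer counts (of Nfib, Nf2, Hdac2 and Camk2d) were named after their values were seen.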

Additional observations from a re-analysis of the deposited data

How the results depend on the processing

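No paired analysis was possible because no column carries a sample number, and for that reason no replicate was left out. The 7 called circRNAs (4 higher, 3 lower) numbered 7 under TMM, DESeq2 size factors or totals lacking collagens and the 7SL locus. With listed totals 9 were called (4 higher, 5 lower). Over all circRNAs, 18.6% were called under TMM, 19.0% with size factors, 18.9% with totals lacking collagens and the 7SL locus, and 19.0% with listed totals. Assuming a variation of 40% per column, 4 were called (3 higher, 1 lower), where 7.22% of all circRNAs were. The gene sums called were then 0 in place of 1. A 4-fold threshold left 3 (2 higher, 1 lower), where 8.93% of all circRNAs were called, and 0 gene sums. Both settings are stricter by construction. With at least 20 counts, 5 of 9 were called, where 30.2% of all such circRNAs were. With close ends merged 5 of 14 were called, and with rows of a single name 5 of 8 (2 higher, 3 lower). No share over all circRNAs was computed for these last settings, so nothing is read from their counts. Each of these settings holds fewer circRNAs. Merging turned the log2 ratio of the higher Bcl11b circRNA from 2.46 to −0.15, that of the merged pair, and ended both Bcl11b calls. No other called log2 ratio of a circRNA or gene sum changed sign under the settings named here. Ranks of the leading circRNAs depend on the column: in induction 4 for Nfix, 199 for Tead1, 1001 for Bcl11b, 1452 for Tcf4 and 279 for Camta1, in control 84 for Tead1, 3706 for Tcf4 and 88 for Camta1, and as gene sums 4, 49, 317, 917 and 77, among 1965 hosts. Of the 15 circRNAs, 6 had under 20 counts, as did 51.5% of all, and their intervals are wide.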

Other observations

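Across the table, 15 pairs of circRNAs shared one end and differed by 1 to 10 nt at the other, among them pairs of Adamts6, Samd4a, Eri3 and Canx. In 2 of the 15 pairs one member was called higher and the other lower, those of Bcl11b and of the collagen gene Col6a2. The share of the first form within its pair differed between induction and control by 46.5 percentage points in Bcl11b, the widest of the 15, against a median of 15.8 points. A Dpp8 pair, on 13 counts in induction and 13 in control, also differed by 3 nt, with 38.5 points. These values were looked up after those of Bcl11b were known, and how the aligner and the circRNA caller place reads at such ends was not tested.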
